A study of Mus musculus with 38 samples.

Results

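Homeobox developmental regulators were taken as the genes whose symbol belongs to the Hoxa, Hoxb, Hoxc or Hoxd cluster or to the Nkx, Pax, Lhx, Dlx, Meis, Pbx, Irx, Msx, Gsx, Emx, Gbx, Prrx, Alx, Pitx or sine oculis (Six4 and its relatives) families and that had counts above 0 in the series. Of 112 symbols of this form in the count table, 83 had counts, 22 of 39 Hox genes and 61 of 73 genes of the other families, against 22408 of all 55385 genes. The choice used the symbol and the presence of counts, and no difference between groups. RNA was sequenced from mouse embryonic stem (ES) cells of strain 129S6/SvEvTac, kept undifferentiated in serum and leukemia inhibitory factor on gelatin. BRM014 blocks BRG1 and BRM, the ATPases that drive the chromatin remodeller SWI/SNF, and an inactive analog and the solvent DMSO served as controls. The first batch held 26 libraries of wild-type cells in 13 groups of 2. BRM014 was given at 10 uM, in separate groups, for times of 30 min, 1 h, 3 h, 6 h and 24 h. DMSO, and the inactive analog at 10 uM, were each given for 1 h and for 24 h. In the remaining groups BRM014 was washed out, after 1 h of treatment for 30 min or 1 h, and after 24 h of treatment for 6 h or 24 h. The second batch held 12 libraries in 6 groups of 2, wild type and the lines labelled Ino80ko and Snf2hko, each with DMSO or 10 uM BRM014 for 24 h. The labels name neither the deleted part of each gene nor the number of clones per line. There was no vehicle group at 3 h or 6 h, so both times were compared with the average of the DMSO groups at 1 h and 24 h. All 83 genes were followed across these groups, asking which needed SWI/SNF activity for their level, how fast they moved and returned, and whether the Hox clusters differed from the other families.

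Homeobox genes encode transcription factors that bind DNA through a homeodomain and set the identity of body regions and organs. Hox genes sit in clusters in which gene order follows the order of expression along the body axis, and their products often bind DNA together with the MEIS and PBX proteins. In ES cells most of these genes are held silent by Polycomb complexes, which SWI/SNF is known to oppose at many sites. Sine oculis, Nkx, Pax, Lhx, Dlx, Irx and Msx genes pattern the eye, brain, limbs, face and heart, and of the Pax proteins Pax1 and Pax9 carry a paired domain without a homeodomain.

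Libraries held 19.3 to 23.1 M counts in the first batch and 21.9 to 44.5 M in the second. Summed levels of the 11 ES cell markers lay between 5076 and 7513 CPM (the count divided by the library total in M, scaled with TMM factors over the 38 libraries), with Sox2 and Tfcp2l1 at 0 in every library. Ino80 itself stood at 174 and 175 CPM in wild type with DMSO in the second batch, at 128 and 122 in the libraries labelled Ino80ko, and at 130 and 125 in those labelled Snf2hko. Smarca5, which encodes SNF2H, and Smarca4, which encodes BRG1, had 0 counts in every library. The counts of the 2 genes named in the labels therefore do not separate the libraries labelled Ino80ko from those labelled Snf2hko, and Ino80ko and Snf2hko below stand for the labels. Smarca2, which encodes BRM, did differ with DMSO in the second batch. It was at 10.7 and 11.2 CPM in wild type, 4.31 and 4.42 in Ino80ko, and 46.9 and 45.2 in Snf2hko. Its part in the response of each line to BRM014 was not tested. The extraction protocol calls the replicates biological without naming separate cultures, so p-values measure the spread between these libraries, which may be partly technical.

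The 29 matching genes at 0 included Hoxa2, Hoxa3, Hoxa4, Hoxa5, Hoxa6, Hoxa9, Hoxb2, Hoxb5, Hoxc5, Hoxc6, Hoxc8, Hoxc9, Hoxc10, Hoxd3, Hoxd4, Hoxd10, Hoxd11, Alx1, Lhx6, Meis1, Nkx1-2, Pax2, Pax5, Pbx2, Pitx1, Prrx1 and Six3. In GENCODE M21, 27 of the 112 matching genes have a span that overlaps another gene on the same strand, and all 27 were at 0. Of the 85 without such an overlap, 83 had counts, and Hoxb2 and Hoxb5 did not. Over all protein-coding genes 4343 of 4381 with such an overlap were at 0, against 2366 of 17516 without. The 29 genes are thus listed at 0, and nothing can be said of their expression. Spans of 6 of the 22 Hox genes and 22 of the other 61 overlap a gene on the opposite strand, among them Hoxa7, Hoxa11, Hoxd8, Gbx2, Nkx6-2, Irx3, Pax6 and Six6. The library kit was stranded, but whether the counting used the strand is not given in the sources used here, so reads of these genes cannot be told apart from those of their antisense partners.

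Upstream sequences are shown for 5 genes on which the results turn: Six6, Six4, Nkx6-2, Hoxd13 and Gbx2. They are the 250 bases before the annotated start, from RefSeq on GRCm38.p6, written 5′ to 3′ along the strand of the gene, with each CG dinucleotide in capitals. For Six4 the window of the more upstream of its RefSeq starts is given.
Six6 (chr12:72939632-72939881, plus strand, 17 CG): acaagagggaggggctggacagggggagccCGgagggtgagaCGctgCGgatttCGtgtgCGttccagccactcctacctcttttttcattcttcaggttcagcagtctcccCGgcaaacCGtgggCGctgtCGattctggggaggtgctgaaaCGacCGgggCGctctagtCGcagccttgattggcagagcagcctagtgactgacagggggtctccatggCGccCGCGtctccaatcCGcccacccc
Six4 (chr12:73113426-73113675, minus strand, 13 CG): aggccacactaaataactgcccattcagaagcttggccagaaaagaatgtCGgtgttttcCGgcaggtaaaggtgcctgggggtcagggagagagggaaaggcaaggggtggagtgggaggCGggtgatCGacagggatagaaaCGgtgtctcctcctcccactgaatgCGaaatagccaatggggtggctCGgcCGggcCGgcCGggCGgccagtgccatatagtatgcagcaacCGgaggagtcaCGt
Nkx6-2 (chr7:139582798-139583047, minus strand, 26 CG): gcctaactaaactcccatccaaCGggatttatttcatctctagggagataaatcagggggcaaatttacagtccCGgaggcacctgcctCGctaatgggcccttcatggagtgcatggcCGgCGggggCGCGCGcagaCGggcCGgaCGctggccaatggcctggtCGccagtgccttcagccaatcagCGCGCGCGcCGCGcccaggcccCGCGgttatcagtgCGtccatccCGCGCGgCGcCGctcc
Hoxd13 (chr2:74667975-74668224, plus strand, 31 CG): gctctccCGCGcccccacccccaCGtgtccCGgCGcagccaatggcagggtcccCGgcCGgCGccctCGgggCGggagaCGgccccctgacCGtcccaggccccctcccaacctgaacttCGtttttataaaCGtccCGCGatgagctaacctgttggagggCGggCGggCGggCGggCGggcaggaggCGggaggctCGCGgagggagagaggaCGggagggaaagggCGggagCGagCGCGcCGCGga
Gbx2 (chr1:89931177-89931426, minus strand, 18 CG): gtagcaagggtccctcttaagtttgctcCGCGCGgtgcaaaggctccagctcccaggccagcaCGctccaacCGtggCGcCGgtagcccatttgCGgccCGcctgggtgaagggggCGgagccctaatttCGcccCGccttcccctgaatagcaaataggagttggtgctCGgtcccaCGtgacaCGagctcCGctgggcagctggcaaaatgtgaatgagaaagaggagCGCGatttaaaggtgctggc
Windows of this kind were found for 56 of the 83 genes (61 windows). The median number of CG dinucleotides was 15 per window, 12.5 in the Hox clusters and 16 in the other families, against 6 over all 32851 RefSeq windows. The homeodomain core TAATTA, read on both strands, occurred in 1.64% of the members' windows and in 4.84% of all windows. The PBX and HOX composite TGATTNAT, also read on both strands and neither containing nor contained in the core, occurred in 3.28% and 2.82%, and Nkx6-2 was 1 of the 2 windows with it. These are letter matches and not measured sites.

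Levels were low and uneven. Mean CPM over the 38 libraries was at least 1 for 8 of 22 Hox genes and 21 of 61 others, and at least 10 for 0 Hox genes and 5 others. Per kilobase of exon, the 10 highest mean levels included those of Gbx2, a regulator of the midbrain and hindbrain boundary that ES cells also express (47.2 CPM per kb), Six4 (17.3), Nkx6-3 (8.57), Nkx6-2 (5.13), Prrx2 (3.49), Nkx2-9 (2.69), Pbx3 (1.93) and Meis3 (1.85). The highest mean CPM of the HoxB, HoxC and HoxD clusters belonged to Hoxb9, Hoxc13 and Hoxd13.

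In wild type, 24 h of BRM014 raised 14 of the 42 members that passed the count filter in the fit of both batches and lowered 10, at an adjusted p under 0.05. That is a share of 57.1%, beside 49.6% of all 11787 genes tested (24.8% higher and 24.8% lower). The Hox clusters had 3 higher and 1 lower of 11, and the other families 11 and 9 of 31. Without DMSO replicate 2 the Hox counts were 5 and 0, and without DMSO replicate 4 or BRM014 replicate 1 or 2 the 1 lower Hox gene was lost. Of the 42, Hoxd8, Hoxd9, Dlx2, Nkx2-5 and Six6 passed the filter of this fit only through the BRM014 libraries, so they had to be higher there. The median log2 fold change was 0.36 over the members that passed and 0.00 over all genes tested. Fold changes are given on the log2 scale ± standard error, with p-values from edgeR's quasi-likelihood test adjusted by Benjamini-Hochberg over all genes tested.

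Six6 and Six4 lie within one stretch of chromosome 12 (GRCm38; Six6 at 72939892 to 72944899, Six4 at 73099609 to 73113456), and both rose. Six4 takes part in muscle precursor and sensory placode development, and Six6 drives eye and pituitary development. Six4 stood at 122, 142, 127 and 143 CPM with DMSO and at 348, 345, 394 and 395 CPM with BRM014, the first pair in each case from the first batch. The groups lay far apart in both batches (1.47 ± 0.07, adjusted p = 3.9e-11). Six6 went from 0.181, 0.104, 0.104 and 0.0943 CPM to 1.79, 1.88, 1.95 and 1.74 CPM (3.94 ± 0.34, adjusted p = 6.5e-08), again without overlap. Six5, on another chromosome, rose by less (0.61 ± 0.18, adjusted p = 0.0093). The call of Six5 was lost without BRM014 replicate 3 (adjusted p = 0.055).

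Meis2, a cofactor of HOX and PBX proteins, was at 2.49, 3.94, 4.07 and 2.76 CPM with DMSO and at 24.7, 22.8, 12.9 and 14.2 CPM with BRM014 (2.41 ± 0.19, adjusted p = 2.1e-07). Its levels with BRM014 were higher in the first batch than in the second, and both stood above every DMSO library. Its relative Meis3 was not called. Nkx6-2, a regulator of ventral neural tube neurons and oligodendrocytes, went from 9.93, 7.11, 6.68 and 7.07 CPM to 23.3, 23.2, 15.6 and 9.43 CPM (1.16 ± 0.17, adjusted p = 5.3e-05). Replicate 4 with BRM014 lay below replicate 1 with DMSO, while the groups did not overlap within a batch. Irx3 and Irx5, which pattern neural tube, heart and limb and lie 556 kb apart on chromosome 8, rose by 2.05 ± 0.26 (adjusted p = 5.9e-06) and 2.09 ± 0.32 (adjusted p = 4.3e-05). Irx3 had 0.907, 0.727, 0.965 and 0.707 CPM with DMSO and 4.78, 6.15, 2.51 and 2.02 CPM with BRM014. Their family member Irx2, on another chromosome, fell (-0.59 ± 0.20, adjusted p = 0.02), a call lost without BRM014 replicate 1 or 4 or DMSO replicate 4 (adjusted p = 0.062 to 0.07).

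Among Hox genes the rises at 24 h were in the HoxD cluster, where all 3 tested genes were called. In this fit Hoxd8 and Hoxd9 passed the filter only through the BRM014 libraries. Of the 9 Hox genes that passed without those libraries, 1 was higher, Hoxd13, and 1 lower. Hoxd13, the last gene of the cluster and a limb and genital regulator, went from 1.54, 1.51, 2.37 and 1.56 CPM to 4.83, 3.50, 3.07 and 3.19 CPM (1.02 ± 0.21, adjusted p = 0.00085). Hoxd8 went from 0.499, 0.311, 0.183 and 0.259 CPM to 1.69, 1.17, 0.640 and 1.17 CPM (1.87 ± 0.35, adjusted p = 3e-04), and Hoxd9 rose by 2.34 ± 0.51 (adjusted p = 0.0011). No library with BRM014 was as low as a DMSO library for these genes. For Hoxd9 the margin was small, as BRM014 replicate 4 and DMSO replicate 1 both had 4 counts, in libraries of 21.9 and 21.6 M. In the fits of each batch alone, Hoxd8 and Hoxd9 passed the filter also without the 24 h BRM014 libraries of wild type. For Hoxd9 this rested on other libraries with BRM014 or of Snf2hko. It had 16 and 11 counts in BRM014 6 h, against 8, 6, 4 and 1 with DMSO in the first batch. In the second it had 15 and 16 in Ino80ko with BRM014 and 22 to 240 in Snf2hko, against 5 and 2 in wild type with DMSO. The 3 tested HoxB genes and Hoxc13 were not called, and of 4 tested HoxA genes Hoxa11 was lower (-1.54 ± 0.53, adjusted p = 0.023). That call was lost without DMSO replicate 2 or 4 or BRM014 replicate 1 or 2 (adjusted p = 0.079 to 0.11) and in the second batch alone (adjusted p = 0.33). Hoxd12, tested in the second batch only, had 12 counts with BRM014 against 1 with DMSO, a ratio of 16.1 with a 95% counting interval of 2.38 to 686. Its call was lost without DMSO replicate 3 or BRM014 replicate 3 (adjusted p = 0.074 and 0.53).

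The falls involved Gbx2, Nkx6-3, Msx, Dlx and Pax genes. Gbx2 went from 107, 123, 90.8 and 95.7 CPM with DMSO to 54.8, 60.2, 41.4 and 37.4 CPM with BRM014 (-1.12 ± 0.07, adjusted p = 3.4e-09). Nkx6-3, a regulator of gastric endocrine cells, went from 22.5, 24.6, 15.4 and 11.5 CPM to 11.3, 12.6, 9.48 and 9.47 CPM (-0.74 ± 0.12, adjusted p = 0.00012), with DMSO replicate 4 inside the range with BRM014 of the other batch. Msx2, a BMP target in limb and skull, fell by 0.99 ± 0.19 (adjusted p = 0.00038). Dlx3 and Dlx4, placental and epithelial genes that lie 15.2 kb apart on chromosome 11, fell by 2.11 ± 0.44 (adjusted p = 0.00081) and 2.01 ± 0.40 (adjusted p = 0.0005). Pax8, a thyroid and kidney regulator, fell by 2.40 ± 0.41 (adjusted p = 0.00015) and Msx3 by 2.75 ± 0.63 (adjusted p = 0.0018). Dlx3, Dlx4, Pax8 and Msx3 were at or below 1.3 CPM in every one of these libraries. Msx3 and Dlx4 were not called in the first batch alone (adjusted p = 0.06 and 0.072).

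Markers of some other cell types fell in the same libraries, and not all did. Mesoderm markers summed to more with BRM014 24 h than with DMSO 24 h in the first batch, with values given below beside washout. Endoderm markers are not given for this comparison. Of 8 trophoblast markers 7 were tested, 4 lower and 1 higher, and their summed level was 174 to 187 CPM with BRM014 against 238 to 291 CPM with DMSO. Fibroblast markers summed to 1.22 to 2.03 against 7.59 to 9.76 CPM (2 of 2 tested lower, with Col3a1, Pdgfra and Col1a2 at 0), and neural markers to 28.9 to 31.4 against 52.7 to 64.1 CPM (1 of 1 tested lower, 6 of 11 at 0). The part of these cell types in the falls, those of Dlx3 and Dlx4 included, was not tested.

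**Figure D1:**
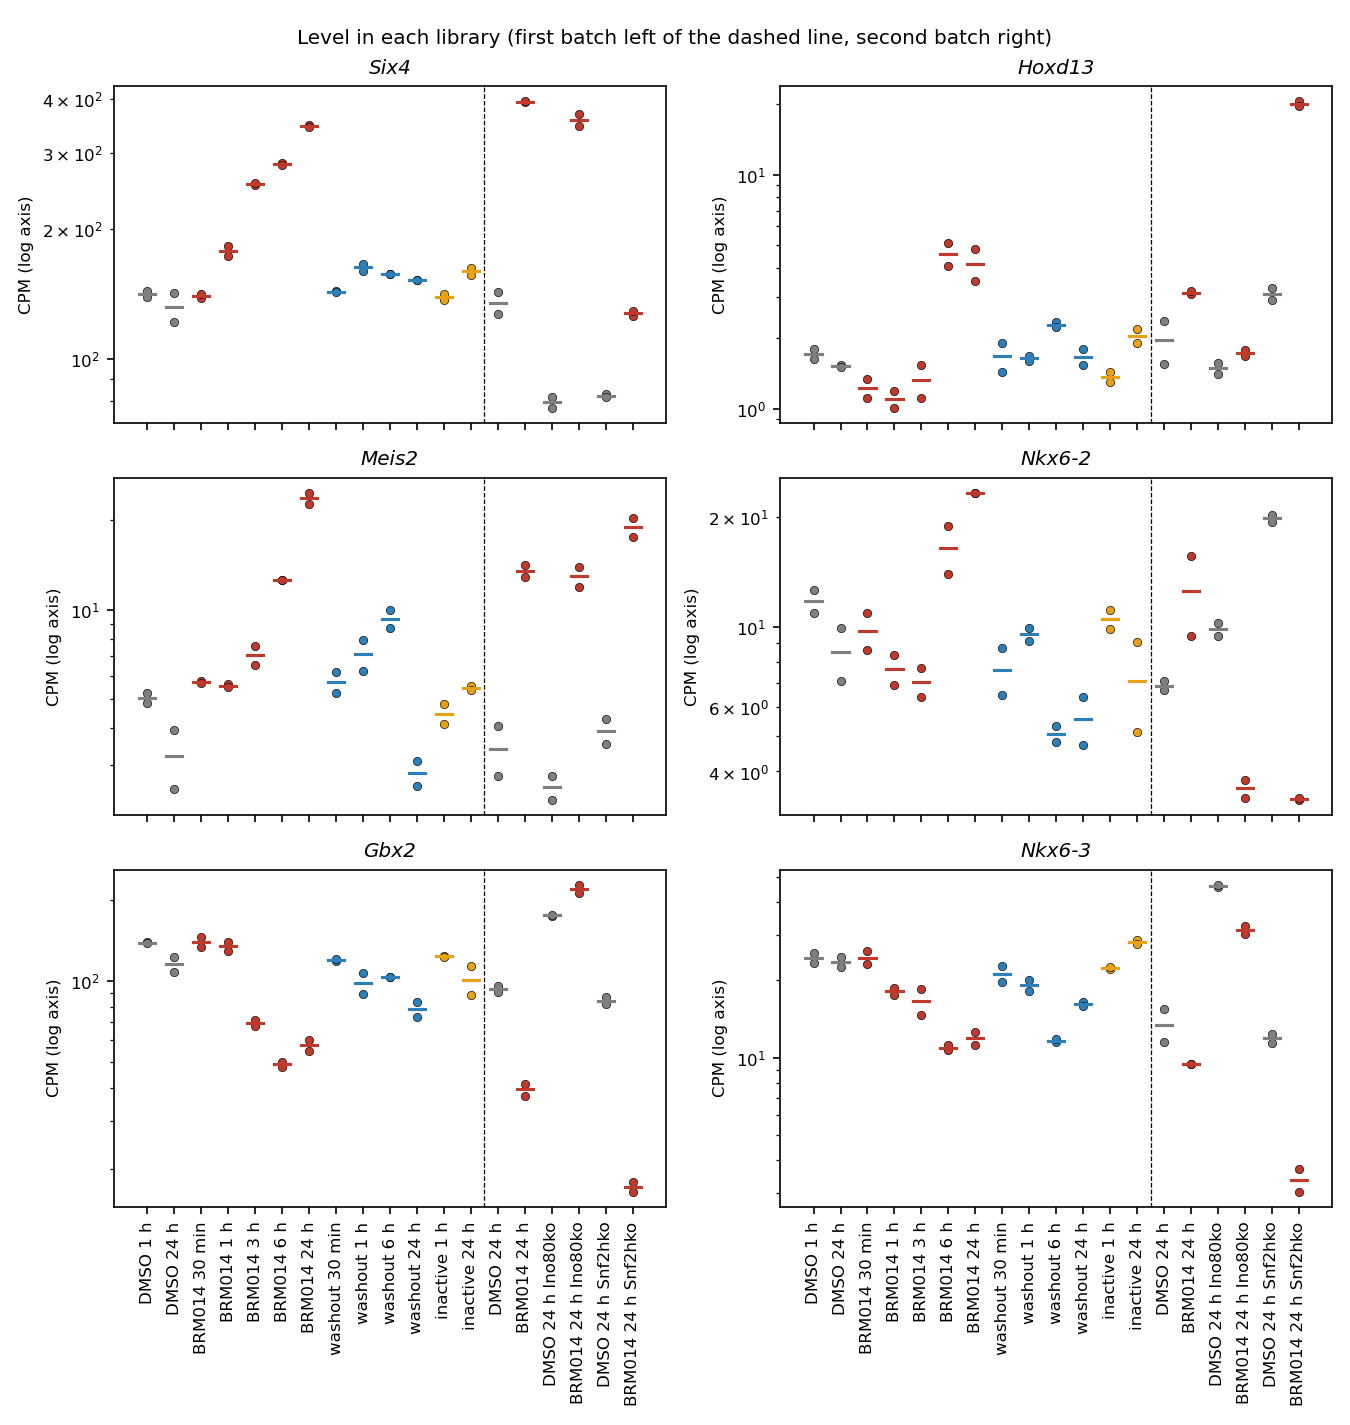
Level of 6 members in every library, in CPM on a log axis, by group, with a bar at the mean of each group of 2. Six4 and Meis2 are high after 6 h and 24 h of BRM014 and near DMSO after washout for 24 h, while Gbx2 falls from 3 h and is highest in the Ino80ko libraries with BRM014 (211 and 227 CPM).

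The batches shared no libraries, so they give 2 separate estimates of the 24 h response. In the first, 16 of 56 tested members were higher and 9 lower (background 45.8% of genes, 22.6% higher and 23.2% lower), and in the second 13 of 74 were higher and 8 lower (background 42.3% of genes, 20.6% higher and 21.7% lower). Among the 56 tested in both, 11 were higher in both, which is 68.8% of the 16 and 91.7% of the 12 of those 56 called higher in the second. Over all 12368 genes tested in both batches the shares were 66.2% and 70.3% for genes higher and 66.5% and 67.8% for genes lower. Among the 11 were Six4, Six6, Meis2, Irx3, Irx5, Nkx2-3, Nkx6-2, Hoxd8, Hoxd9 and Hoxd13. The 6 lower in both, of 9 and 8, included Gbx2, Nkx6-3, Msx2, Dlx3 and Pax8, and 0 were called in opposite directions. Single libraries decided some of these calls. In the first batch those of Hoxd8, Hoxd9 and Msx2 were lost without DMSO replicate 2 or BRM014 replicate 1 (adjusted p = 0.052 to 0.069), and in the second those of Hoxd9, Hoxd13, Irx5, Nkx6-3, Dlx3 and Pax8 were lost without DMSO replicate 3 or 4 or BRM014 replicate 3 (adjusted p = 0.06 to 0.43). The size of the response differed between batches for 1 of 42 members, Pax6 (-0.95 ± 0.18 for the second minus the first, adjusted p = 0.0065; background 3.46% of genes, 1.98% higher and 1.48% lower). Pax6, a regulator of eye and forebrain, went from 8.39 and 7.27 to 17.2 and 16.9 CPM in the first batch and from 13.3 and 13.7 to 15.2 and 14.9 CPM in the second.

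The first changes appeared within 1 h. At 30 min 0 of 56 members were called (background 0%, and 1 member at an unadjusted p under 0.05), and Six4 differed from DMSO by -0.02 (95% interval -0.15 to 0.11). At 1 h 2 members were higher and 0 lower, among them Six4, with 143 and 139 CPM in DMSO 1 h and 173 and 183 CPM with BRM014 (0.33 ± 0.06, adjusted p = 0.0038). The background was 0.599% of 12517 genes, 0.216% higher and 0.383% lower. Its call was lost without replicate 2 of DMSO 1 h or of BRM014 1 h (adjusted p = 0.13 in both), and the count was then 0. By 3 h 6 members were higher and 6 lower (background 31.2% of genes, 15.5% higher and 15.7% lower). Dlx2, Nkx2-3, Lhx9, Six4 and Meis2 were among those that rose, and Hoxa11, Gsx1, Pax6, Gbx2, Msx2 and Nkx6-3 fell. Gbx2 had 71.3 and 67.8 CPM at 3 h, below its 139 and 138 CPM in DMSO 1 h and its 107 and 123 CPM in DMSO 24 h (-0.86 ± 0.08, adjusted p = 2.3e-08). With DMSO 24 h as the only vehicle the calls of Gsx1 (adjusted p = 0.54) and Msx2 (adjusted p = 0.067) were lost, and DESeq2 did not call Gsx1 either (adjusted p = 0.063). For Gsx1 the call also ended without either DMSO 1 h library, BRM014 3 h replicate 2 or DMSO 24 h replicate 1 (adjusted p = 0.059 to 0.66), for Msx2 without DMSO 1 h replicate 2, either BRM014 3 h library or DMSO 24 h replicate 1 (adjusted p = 0.062 to 0.24), and for Hoxa11 without BRM014 3 h replicate 1 (adjusted p = 0.053).

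At 6 h the response was widest in wild type. Of 56 tested members 27 were higher and 6 lower, and of all genes 48.4% were called, 24.9% higher and 23.5% lower. Hox genes had 7 higher and 0 lower of 14, the others 20 and 6 of 42, and the medians were 0.79 and 0.66 against 0.00 over all genes. Dlx6 and Nkx2-2 did not pass the filter without the BRM014 6 h libraries, so their rises are partly set by it. The largest rises included those of Lhx5 (3.20 ± 0.51, adjusted p = 8e-06), Dlx2 (3.16 ± 0.51, adjusted p = 9.7e-06), Dlx6 (2.83 ± 0.62, adjusted p = 0.00043) and Lhx9 (2.73 ± 0.41, adjusted p = 3.3e-06), regulators of forebrain, branchial arch and gonad that were near the detection limit with vehicle, and of Irx5 (2.54 ± 0.25, adjusted p = 1.3e-09). The falls were led by Dlx4 (-1.57 ± 0.63, adjusted p = 0.043), Gbx2 (-1.35 ± 0.09, adjusted p = 3.2e-12), Pax8 (-1.25 ± 0.46, adjusted p = 0.024) and Nkx6-3 (-1.11 ± 0.10, adjusted p = 5.7e-10). The call of Dlx4 was lost without any 1 of the 6 libraries (adjusted p = 0.051 to 0.29) and against either vehicle alone (adjusted p = 0.07 and 0.082), and that of Pax8 without DMSO 1 h replicate 1, DMSO 24 h replicate 2 or either BRM014 6 h library (adjusted p = 0.052 to 0.18). Lhx9 had 0.415 and 0.301 CPM in DMSO 1 h, 0.181 and 0.208 in DMSO 24 h, 1.31 and 1.17 at 3 h, 1.76 and 1.73 at 6 h, and 0.149 and 0.356 at 24 h. It was thus above both vehicles at 3 h and 6 h, and at 24 h it was no longer above them. Hoxb13 had 2.70 and 2.87 CPM at 6 h against 0.544 to 1.40 CPM in the 4 vehicle libraries of the batch (1.56 ± 0.33, adjusted p = 0.00029) and was at 1.05 and 0.711 CPM at 24 h. Other Hox genes called at 6 h included Hoxa7, Hoxb4, Hoxb7, Hoxd8 and Hoxd13 (0.96 to 2.25). Without BRM014 6 h replicate 1 the 7 Hox calls became 3, with Hoxb4, Hoxb7 and Hoxd8 among those lost (adjusted p = 0.054 to 0.17). That of Hoxb4 also failed without BRM014 6 h replicate 2, DMSO 1 h replicate 1 or DMSO 24 h replicate 2 (adjusted p = 0.091 to 0.14). Six4 continued to rise, with 253 and 256 CPM at 3 h, 284 and 281 at 6 h and 348 and 345 at 24 h. Gbx2 was at 49.98 and 47.5 CPM at 6 h and at 54.8 and 60.2 at 24 h.

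Vehicle values themselves moved between 1 h and 24 h, which bears on the 3 h and 6 h comparisons. Between DMSO 1 h and DMSO 24 h 2 members were higher and 4 lower (background 18.5% of genes, 8.91% higher and 9.63% lower). Prrx2, a limb and craniofacial mesenchyme gene, had 9.82 and 9.41 CPM at 1 h and 4.58 and 3.94 CPM at 24 h (-1.18 ± 0.17, adjusted p = 1.6e-05), and Meis2 (-0.67 ± 0.19), Gsx1 (-2.11 ± 0.59) and Gbx2 (-0.28 ± 0.09) were also lower, while Nkx2-9 (adjusted p = 0.015) and Pbx3 (0.40 ± 0.12) were higher. The calls of Gsx1, Gbx2, Nkx2-9 and Pbx3 were each lost without at least 1 of DMSO 1 h replicates 1 and 2 and DMSO 24 h replicates 1 and 2 (adjusted p = 0.086 to 0.25). The call of Prrx2 as lower at 6 h was lost against DMSO 24 h alone (adjusted p = 0.8), and those of Nkx6-2 and Pax8 were lost against DMSO 1 h alone (adjusted p = 0.055 and 0.2). For Nkx6-2 the call was also lost without BRM014 6 h replicate 2 (adjusted p = 0.084).

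**Figure D2:**
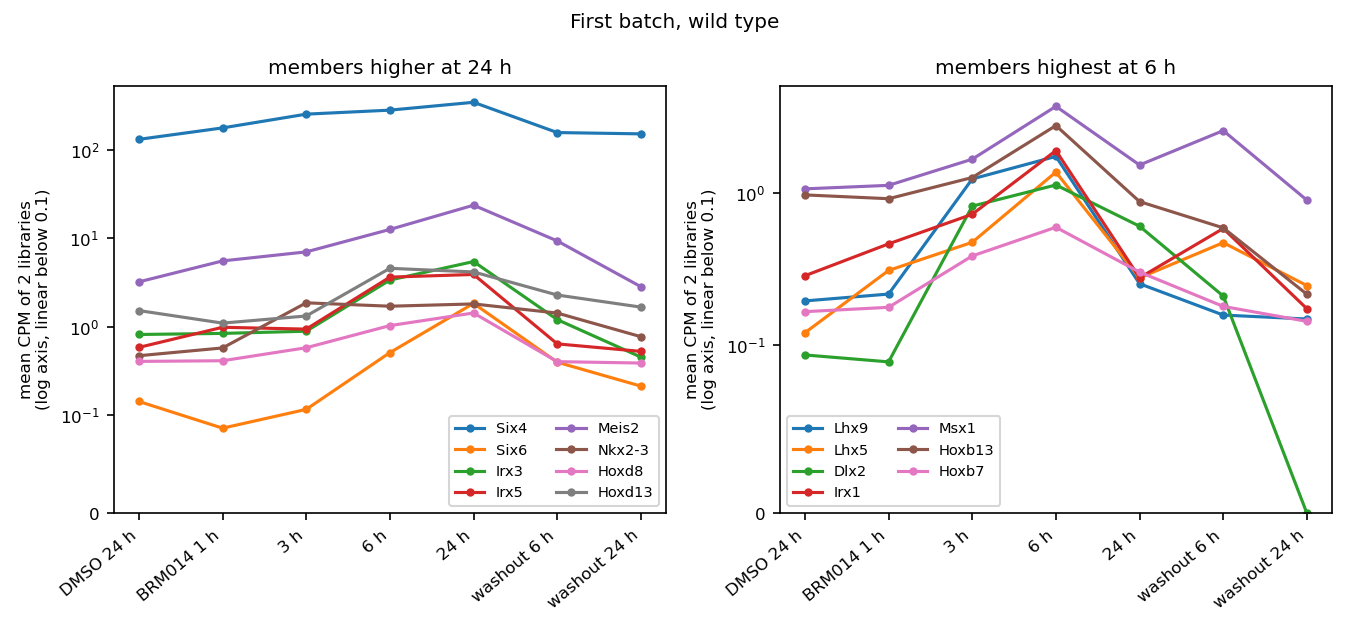
Mean CPM of the 2 libraries of each group of the first batch, on an axis that is logarithmic above 0.1 and linear below, for members chosen after their values were seen. In the left panel Six4 reaches 348 and 345 CPM at 24 h and returns to 153 and 152 CPM 24 h after washout, and in the right panel Lhx9, Hoxb13 and other members are higher at 6 h than at 24 h.

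The inactive analog was compared with BRM014 at the same dose at 1 h and 24 h, 2 pairs in all. At 1 h the analog changed 0 members against DMSO (background 0.184% of genes, 0.0559% higher and 0.128% lower, and 1 member at an unadjusted p under 0.05), with Six4 at 137 and 141 CPM (-0.03, 95% interval -0.16 to 0.10). BRM014 exceeded the analog at 1 h for Six4 (0.36 ± 0.06, adjusted p = 0.005; background 0.16% of genes, 0.0719% higher and 0.0879% lower). The call of Six4 was lost without replicate 2 of BRM014 or replicate 1 of the analog at that time (adjusted p = 0.31 and 0.18) and when only these groups were fitted (adjusted p = 0.06). At 24 h the analog itself differed from DMSO in 8 members, 5 higher and 3 lower (background 18.4% of genes, 8.91% higher and 9.52% lower). Six4 was at 163 and 157 CPM with the analog against 122 and 142 with DMSO (0.28 ± 0.06, adjusted p = 0.0015), and Meis2 at 5.55 and 5.37 against 2.49 and 3.94 (0.78 ± 0.19, adjusted p = 0.0036). Nkx2-3 and Gbx1 were also higher and Nkx2-9, Hoxb9 and Dlx3 lower. The calls of Six4 and Meis2 were lost without DMSO 24 h replicate 1 (adjusted p = 0.066 and 0.12) or when only the 2 groups were fitted (adjusted p = 0.1 and 0.051), that of Gbx1 without any 1 of the 4 libraries, that of Hoxb9 without DMSO replicate 1 or either analog library, and those of Nkx2-3 and Dlx3 without DMSO replicate 2 or 1 of the analog libraries (adjusted p = 0.067 to 0.39).

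Against the analog at 24 h, BRM014 was higher in 15 of 56 members and lower in 9 (background 35.4% of genes, 17.3% higher and 18.1% lower). Without BRM014 24 h replicate 1 or inactive 24 h replicate 1 the lower count was 4 or 5. Six4, Six6, Meis2, Irx3, Irx5 and Nkx6-2 were higher (1.12 ± 0.06, 3.14 ± 0.54, 2.12 ± 0.15, 2.86 ± 0.34, 2.14 ± 0.29 and 1.71 ± 0.21), and Gbx2, Nkx6-3 and Gbx1 lower (-0.81 ± 0.10, -1.24 ± 0.11 and -1.49 ± 0.31). Msx2 (-0.87 ± 0.25), Pax8 (-1.93 ± 0.67) and Nkx1-1 (1 count against 15) were lower too, in calls that each failed (adjusted p = 0.067 to 0.27) when replicate 1 of either group was left out. Dlx2 and Nkx2-2 had 0 counts with the analog and 24 and 18 with BRM014, at least 8.92-fold and 6.69-fold higher where the group at 0 is set to 3 counts in all. Nkx2-2 did not pass the count filter without the BRM014 24 h libraries, so its rise is partly set by the filter. Of the Hox genes only Hoxd13 (1.02 ± 0.23, adjusted p = 0.00068) and Hoxb9 (1.64 ± 0.39, adjusted p = 0.0015) were called. Hoxb9 was lower with the analog than with DMSO, in a comparison that shares the analog libraries. Hoxd8 did not pass the test (0.34, 95% interval -0.59 to 1.28), nor did Hoxd9 (1.18, 95% interval -0.26 to 2.63).

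After 1 h of BRM014 the early rise of Six4 was no longer seen after 30 min of washout. The comparisons of this washout share the BRM014 1 h libraries with the comparison against DMSO 1 h that gave the rise. With 30 min of washout 2 members were lower and 1 higher than at 1 h of BRM014. Six4 was at 144 and 143 CPM, lower by 0.33 ± 0.06 (adjusted p = 0.00079), and Meis3 was higher (0.56 ± 0.15, adjusted p = 0.02; background 5.9% of genes, 2.88% higher and 3.01% lower). After 1 h of washout 2 members were lower and 0 higher than at 1 h of BRM014, among them Gbx2 (-0.46 ± 0.09, adjusted p = 0.0034; background 3.98% of genes, 3.02% higher and 0.959% lower). Six4 was then at 160 and 166 CPM, against 173 and 183 CPM at 1 h of BRM014, and did not pass the test (-0.13 ± 0.06, adjusted p = 0.27). Its levels after 1 h of washout lay above both DMSO 1 h libraries, a difference that was not tested. At 30 min the call of Six4 ended when only the 2 groups were fitted (adjusted p = 0.091), and that of Meis3 without either BRM014 1 h library or washout replicate 2 (adjusted p = 0.081 to 0.14). At 1 h the call of Gbx2 was lost without BRM014 1 h replicate 2 or washout replicate 1 (adjusted p = 0.089 and 0.081).

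After 24 h of BRM014, washout for 6 h lowered 14 members and raised 11 (background 48.7% of genes, 25.3% higher and 23.4% lower), and washout for 24 h lowered 21 and raised 11 (background 50.4% of genes, 25.8% higher and 24.6% lower), both against BRM014 24 h. The 11 raised after 6 h became 6 without BRM014 24 h replicate 1 and 7 without washout 6 h replicate 1. These comparisons share the BRM014 24 h libraries with the comparison against DMSO, so the levels are given side by side. Six4 was at 157 and 158 CPM after 6 h and at 153 and 152 CPM after 24 h of washout, beside 122 and 142 CPM in DMSO 24 h of the batch. Irx3 was at 1.37 and 1.04 and then at 0.501 and 0.405 CPM, Hoxd13 at 2.33 and 2.23 and then at 1.80 and 1.53 CPM, and Hoxd8 at 0.308 and 0.496 and then at 0.551 and 0.225 CPM. Meis2 returned later, with 8.68 and 10.0 CPM after 6 h and 3.11 and 2.56 CPM after 24 h. Gbx2 was at 103 and 103 CPM after 6 h and at 83.1 and 73.3 CPM after 24 h, and Nkx6-3 at 11.5 and 11.8 and then at 16.5 and 15.9 CPM. Pax6 stood at 18.8 and 19.6 CPM after 6 h of washout, above its 17.2 and 16.9 CPM at 24 h of BRM014, and Pax8 at 2.25 and 2.43 CPM, above its 0.816 and 1.04 CPM in DMSO 24 h. Neural markers summed to 116 to 126 CPM in the same 6 h washout libraries, against 28.9 to 30.1 in BRM014 24 h and 52.7 to 53.5 in DMSO 24 h (1 of 11 tested, higher, and 6 at 0). Mesoderm markers summed to 60.3 to 62.8 CPM, against 19.4 to 21.8 and 13.4 to 14.9 (3 of 8 tested higher and 1 lower), and trophoblast markers to 373 to 382 CPM, against 174 to 179 and 268 to 291 (5 of 7 tested higher and 1 lower). The part of these cell types in the levels after washout was not tested. The rises after 6 h were led by Pax8 (4.16 ± 0.51, adjusted p = 1.1e-07), Gsx1 (26 counts against 3, a ratio of 8.04 with a 95% counting interval of 2.47 to 41.5), Hoxa11 (2.33 ± 0.70), Dlx3 (2.06 ± 0.77), Lhx3 (1.78 ± 0.60) and Prrx2 (1.43 ± 0.20), and those after 24 h included Nkx1-1 (16 counts against 1), Pax8 (3.56 ± 0.55), Dlx3 (2.98 ± 0.69), Msx3 (2.24 ± 0.63) and Dlx4 (1.76 ± 0.74). Of these, Pax8 and Prrx2 at 6 h and Pax8 and Dlx3 at 24 h stayed called when any 1 library was left out, and the others did not (adjusted p = 0.055 to 0.43). Lhx3 had 13 and 17 counts after 6 h of washout and at most 8 in each other library of the first batch. It passed the count filter only through the 6 h washout libraries, so it had to be high there. Of the 14 Hox genes tested 5 were lower and 1 higher after 6 h of washout than at the end of treatment, and 6 were lower and 0 higher after 24 h. Without BRM014 24 h replicate 1 these became 1 and 0 after 6 h and 3 and 0 after 24 h, and without washout 6 h replicate 1 they were 1 and 0 after 6 h.

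Against DMSO 24 h, 9 members still differed after 24 h of washout, 4 higher and 5 lower (background 17.4% of genes, 8.91% higher and 8.52% lower), and leaving out any 1 of the 4 libraries left 1 to 3 higher and 3 to 6 lower. Six4 (0.21 ± 0.06), Pax6 (0.51 ± 0.16) and Meis3 (0.49 ± 0.16) were among the higher. Gbx2 (-0.55 ± 0.09, adjusted p = 0.00018), Nkx6-3 (-0.54 ± 0.11, adjusted p = 0.001), Prrx2 (-0.76 ± 0.21), Nkx2-9 (-1.32 ± 0.29) and Hoxb13 (-2.12 ± 0.63) were lower. Leaving out 1 library ended the calls of Six4, Pax6, Meis3, Prrx2, Nkx2-9 and Hoxb13 (adjusted p = 0.055 to 0.33, each for at least 1 of DMSO 24 h replicates 1 and 2 and washout 24 h replicates 1 and 2), but not those of Gbx2 and Nkx6-3. Meis2 (-0.17, 95% interval -0.62 to 0.28) did not differ beyond the threshold from vehicle at this time, nor did Nkx6-2 (-0.62, 95% interval -1.14 to -0.11, adjusted p = 0.079). No washed vehicle was part of the design.

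With DMSO alone, members already differed from wild type in the libraries labelled Ino80ko and Snf2hko. In Ino80ko 12 of 74 tested members were higher and 13 lower (background 45% of genes, 22.1% higher and 22.9% lower), with 7 lower without Ino80ko replicate 2, and in Snf2hko 37 were higher and 5 lower (background 56.5% of genes, 28.9% higher and 27.7% lower). Both comparisons share the wild-type libraries. The counts in Snf2hko are partly set by the count filter, as given below with the Hox genes. Six4 was lower in both, with 127 and 143 CPM in wild type, 76.9 and 81.7 CPM in Ino80ko (-0.76 ± 0.07, adjusted p = 3.6e-08) and 83.0 and 81.4 CPM in Snf2hko (-0.72 ± 0.07, adjusted p = 3.3e-08). Msx2 diverged, from 4.38 and 3.54 CPM in wild type to 1.54 and 1.69 CPM in Ino80ko (-1.29 ± 0.17, adjusted p = 5.9e-06) and 17.1 and 16.8 CPM in Snf2hko (2.09 ± 0.14, adjusted p = 2e-10). Gbx2 was at 174 and 175 CPM in Ino80ko against 90.8 and 95.7 in wild type (0.91 ± 0.07, adjusted p = 6.7e-09), and Nkx6-3 at 46.1 and 46.8 against 15.4 and 11.5 (1.79 ± 0.12, adjusted p = 5e-10). Prrx2 (2.27 ± 0.15, adjusted p = 6.8e-10) and Gsx1 (2.42 ± 0.44, adjusted p = 0.00018) were also higher in Ino80ko. Lhx3 (2.04 ± 0.75) and Lhx5 (1.35 ± 0.53) were higher and Nkx2-3 (-1.65 ± 0.50), Irx4 (-1.88 ± 0.54), Msx3 (-2.10 ± 0.62) and Nkx2-2 (0 counts against 14, at least 4.58-fold lower against the floor of 3 counts over the group) lower, in calls lost when single libraries were left out (adjusted p = 0.059 to 0.35). Irx3 fell to 0.131 and 0.122 CPM in Ino80ko from 0.965 and 0.707 (-2.69 ± 0.44, adjusted p = 6.6e-05).

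Hox genes of all clusters were higher in Snf2hko with DMSO, with few calls in Ino80ko. In Ino80ko 2 of 21 tested Hox genes were higher, among them Hoxb9 (1.45 ± 0.32), and 2 lower, Hoxc13 (-1.40 ± 0.39) and Hoxb4 (-1.21 ± 0.39), with a median of -0.37. The calls of Hoxc13 and Hoxb4 were lost without wild-type replicate 3 or 1 of the Ino80ko libraries (adjusted p = 0.051 to 0.21). In Snf2hko 15 of 21 were higher and 0 lower, with a median of 1.44 beside 0.00 over all genes, and the other families had 22 higher and 5 lower of 53 with a median of 0.64. Of the 21, 10 (Hoxa11, Hoxa13, Hoxb3, Hoxb6, Hoxb7, Hoxb8, Hoxc11, Hoxc12, Hoxd1 and Hoxd12) passed the count filter only through the Snf2hko libraries, where they had to be high, so counts and medians over the 21 are partly set by the filter. Of the 11 that passed without them 10 were higher and 0 lower, beside 28.6% and 28.8% of the 12566 genes that passed in the same way. The same limit holds for 19 of the 53 genes of the other families. The 34 that passed without the Snf2hko libraries had 14 higher and 5 lower, with a median of 0.21. The 15 came from all clusters: 3 of 5 HoxA, 5 of 7 HoxB, 3 of 4 HoxC and 4 of 5 HoxD genes. Leaving out any 1 library left 12 or 13 of them. Hoxa11, a regulator of forelimb and uterus, was at 0.130 and 0.354 CPM in wild type and at 3.62 and 4.10 CPM in Snf2hko (3.94 ± 0.31, adjusted p = 3.3e-09), and the libraries were far apart. Hoxb9 (2.23 ± 0.30, adjusted p = 3.4e-06) and Hoxa10 (1.73 ± 0.23, adjusted p = 3.5e-06) were also higher, and Hoxd13 was higher by 0.66 ± 0.19 (adjusted p = 0.0056), a call lost without wild-type replicate 4 (adjusted p = 0.14). Hoxc11 had 0 counts in wild type and 20 in Snf2hko, at least 6.21-fold higher against the floor of 3 counts over the group. Hoxd12 had 22 counts in Snf2hko against 1, a ratio of 20.5 with a 95% counting interval of 3.31 to 845. Hoxb6 had 13 against 1, a ratio of 12.1 with an interval of 1.82 to 514, and its call was lost without either wild-type library or Snf2hko replicate 2 (adjusted p = 0.056 to 0.31) and with DESeq2 (adjusted p = 0.1). Other members higher in Snf2hko included Prrx2 (1.93 ± 0.15), Irx2 (1.91 ± 0.18), Nkx6-2 (1.52 ± 0.16), Meis3 (1.44 ± 0.13), Pax9 (2.74 ± 0.50), Nkx6-1 (3.21 ± 0.60) and Alx4 (4.10 ± 0.64). Of these, Pax9, Nkx6-1 and Alx4 passed the filter only through the Snf2hko libraries, so they had to be high in that line. Their counts in wild type with DMSO were 5 and 5, 5 and 4, and 2 and 3. Beside Six4, Nkx2-9 (-1.09 ± 0.27) and Pbx3 (-0.44 ± 0.12) were lower, the latter in a call lost without wild-type replicate 4 (adjusted p = 0.074).

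Markers of differentiated cell types moved in the same libraries. Of 9 endoderm markers 7 were tested and 6 were higher in Snf2hko with DMSO (median 2.21), and their summed level was 684 to 705 CPM against 144 to 150 in wild type. Of 8 trophoblast markers 4 of 7 tested were higher and 1 lower (612 to 616 against 238 to 256 CPM), and of 11 mesoderm markers 4 of 9 tested were higher and 1 lower (28.6 to 28.7 against 11.1 to 11.4 CPM). ES cell markers summed to 5166 to 5445 CPM against 5708 to 6044 CPM. In Ino80ko 5 of the 7 endoderm markers were lower and 0 higher (68.2 to 74.0 CPM), and 4 of the 7 trophoblast markers were lower and 0 higher (109 to 114 CPM). The part of other cell types in the values of Hox genes and other members was not tested, and in bulk RNA more cells of a type and more RNA per cell cannot be told apart.

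Given BRM014 for 24 h, Snf2hko had the largest number of called members of the 24 comparisons made. Of 74 tested members 37 were higher and 17 lower (background 56.9% of genes, 28.7% higher and 28.2% lower), and the 17 lower became 10 without DMSO replicate 2 of the line and 11 without BRM014 replicate 2. Hox genes had 17 higher and 0 lower of 21, with a median of 1.58. Of the 11 that passed the filter without the Snf2hko libraries 11 were higher, beside 28.7% of the 12566 genes that passed in the same way. The other families had 20 higher and 17 lower of 53, with a median of 0.38. Of these 53, 19 passed the filter only through the Snf2hko libraries, among them Dlx2, Dlx6, Alx4 and Nkx1-1. The 34 that passed without them had 13 higher and 14 lower, with a median of -0.21. Hoxd13 went from 3.26 and 2.93 CPM with DMSO to 20.5 and 19.5 CPM with BRM014 (2.70 ± 0.15, adjusted p = 3.1e-11). Hoxa7 went from 0.969 and 1.06 to 6.21 and 7.24 CPM (2.74 ± 0.25, adjusted p = 2.1e-08). Hoxd8 went from 0.733 and 0.495 to 5.79 and 6.10 CPM (3.28 ± 0.27, adjusted p = 4.6e-09) and Hoxd9 from 0.520 and 0.833 to 4.46 and 5.59 CPM (2.89 ± 0.29, adjusted p = 7.9e-08). Hoxa11, already high in this line, was at 3.37 and 3.33 CPM and was not called. The rise covered 5 of 5 tested genes of paralogue groups 1 to 4, 4 of 5 of groups 5 to 8 and 8 of 11 of groups 9 to 13. Leaving out any 1 library left 16 or 17 of the 17 called Hox genes. Hoxb8 was higher by 3.83 ± 0.82 (adjusted p = 0.00064), from 4 counts with DMSO.

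Outside the Hox clusters the largest rises in Snf2hko included those of Dlx2 (4.31 ± 0.48, adjusted p = 3.1e-07), Six6 (3.68 ± 0.42, adjusted p = 4.7e-07) and Nkx2-3 (3.35 ± 0.28, adjusted p = 7.9e-09), a gene of gut and spleen development. Dlx6 had 34 counts against 2, a ratio of 18.7 with a 95% counting interval of 4.80 to 161, and its call was lost without DMSO replicate 2 of the line (adjusted p = 0.057). The largest falls were those of Dlx4, with 2 counts against 54, a ratio of 0.0408 with an interval of 0.00481 to 0.155, Alx4 (-4.06 ± 0.64, adjusted p = 2.4e-05), Nkx1-1, Nkx6-2, Gbx2 and Msx2 (-2.09 ± 0.14, adjusted p = 2.4e-10). Nkx1-1 fell by 2.56 ± 0.85 (adjusted p = 0.016), a call lost without either DMSO library or BRM014 replicate 2 of the line (adjusted p = 0.053 to 0.16). Endoderm markers rose in the same comparison (5 of 7 tested higher, 1 lower, 1046 to 1202 CPM against 684 to 705). Mesoderm markers summed to 41.7 to 47.8 against 28.6 to 28.7 CPM (3 of 9 tested higher, 1 lower), trophoblast markers to 434 to 481 against 612 to 616 CPM (2 of 7 higher, 5 lower) and neural markers to 46.8 to 50.8 against 73.8 to 76.3 CPM (1 of 3 higher, 1 lower). The part of these cell types in the values of Hox genes and other members was not tested.

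In Ino80ko 9 of 74 members were higher and 16 lower with BRM014 (background 44.5% of genes, 22% higher and 22.6% lower). Six4 went from 76.9 and 81.7 to 345 and 369 CPM (2.17 ± 0.07, adjusted p = 1.2e-14). Six6 had 2 counts with DMSO and 48 with BRM014, a ratio of 24.9 with a 95% counting interval of 6.53 to 212. Meis2 rose by 2.35 ± 0.17 (adjusted p = 1.6e-09). Of 21 tested Hox genes 1 was higher, Hoxd9 (1.29 ± 0.52, adjusted p = 0.049), and 1 lower, Hoxa11 (adjusted p = 0.026), with 3 counts against 15, a ratio of 0.208 with a 95% counting interval of 0.0385 to 0.734. The call of Hoxd9 was lost without any 1 of the 4 libraries (adjusted p = 0.082 to 0.22) and with DESeq2 (adjusted p = 0.057), and that of Hoxa11 without any 1 of the 4 (adjusted p = 0.059 to 0.16). Hoxd13 changed by 0.21 (95% interval -0.31 to 0.74). Prrx2 (-2.48 ± 0.15), Gsx1 (-3.40 ± 0.50), Dlx3 (-3.01 ± 0.51) and Dlx4 (-2.46 ± 0.50) were among the falls, and Pax7 had 22 counts with DMSO and 0 with BRM014, at least 7.06-fold lower against the floor of 3 counts over the group. Pax7 did not pass the count filter without the Ino80ko libraries. Its counts there were 9 and 13 with DMSO, so its fall is partly set by the filter. Nkx2-3 (1.73 ± 0.50) and Lhx9 (1.33 ± 0.48) were higher, and Nkx2-5 (2 counts against 16) and Nkx1-1 (1 against 19) lower, in calls lost when single libraries were left out (adjusted p = 0.083 to 0.57). Trophoblast markers summed to 68.7 to 71.2 CPM with BRM014 against 109 to 114 with DMSO (1 of 7 tested higher, 5 lower), and their part in these values was not tested.

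**Figure D3:**
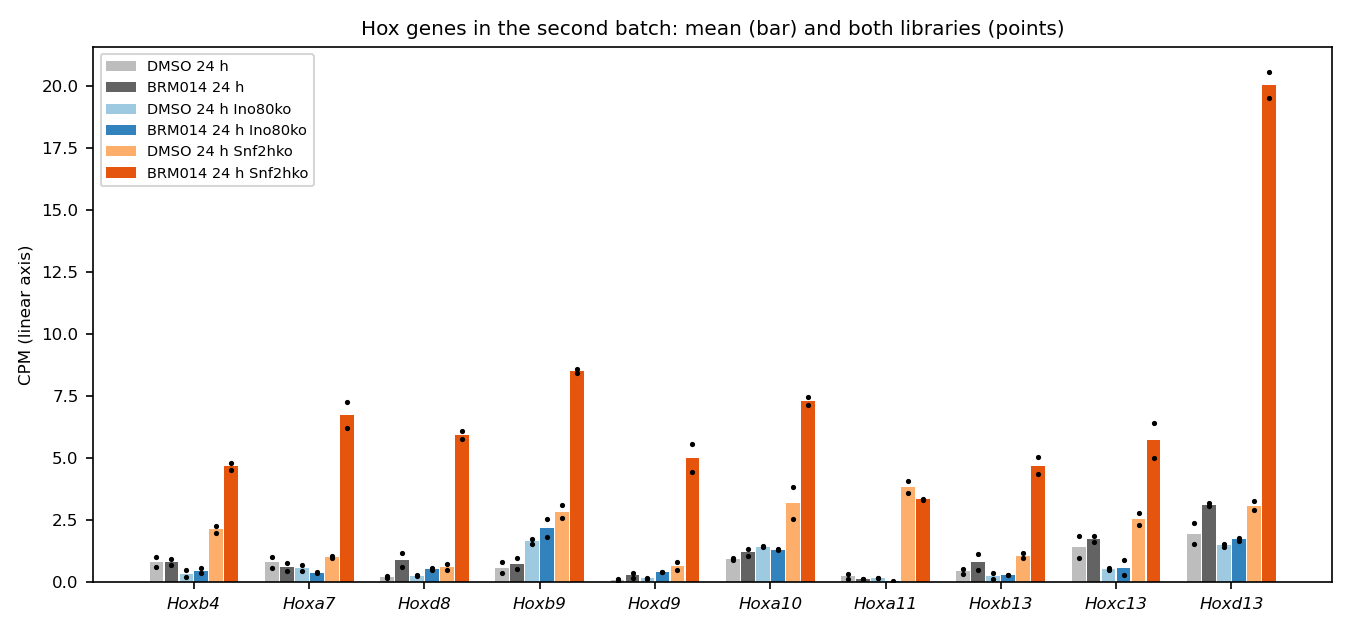
CPM of 10 Hox genes in the 6 groups of the second batch, with bars at the mean of 2 libraries and points for each library, on an axis that starts at 0. Hoxd13 (20.5 and 19.5 CPM) and Hoxa7 (6.21 and 7.24 CPM) are highest in Snf2hko with BRM014, where both exceed their wild-type libraries.

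In all 3 genotypes, which share no libraries, 12 of 74 members (16.2%) were called in the same direction by BRM014, against 20.8% of all 13130 genes tested, so the share was no larger among the members. The 12 included Six4, Six6, Meis2, Nkx2-3, Pbx4 and Hoxd9 upward and Dlx4, Msx2, Nkx6-3 and Pax8 downward. Of those named, Six4, Six6, Meis2, Dlx4 and Msx2 were called in each genotype also when any 1 library was left out, and the others were not (Nkx6-3, Pax8 and Hoxd9 in wild type, Nkx2-3 and Hoxd9 in Ino80ko, Pbx4 and Pax8 in Snf2hko, adjusted p = 0.065 to 0.43). Of the 13 members higher in wild type 7 (53.8%) were also higher in Ino80ko and 12 (92.3%) in Snf2hko, which are 77.8% and 32.4% of the members higher in those lines. Over all genes the shares of those higher in wild type were 69% and 61.5%, which are 64.6% and 44% of the genes higher in those lines. Nkx6-2 was called in the opposite direction in both lines. It rose in wild type of the second batch (0.89 ± 0.17, adjusted p = 0.00023) but went from 9.40 and 10.2 CPM to 3.80 and 3.39 CPM in Ino80ko (-1.45 ± 0.18, adjusted p = 1.8e-06) and from 19.4 and 20.2 to 3.34 and 3.38 CPM in Snf2hko (-2.55 ± 0.17, adjusted p = 3.8e-10). The interaction of line and drug for this gene was -2.35 ± 0.24 in Ino80ko (adjusted p = 5.7e-06) and -3.45 ± 0.24 in Snf2hko (adjusted p = 7.9e-09). Gbx2 behaved otherwise: it fell in wild type (-1.24 ± 0.07), fell further in Snf2hko, from 86.9 and 81.6 to 17.8 and 16.4 CPM (-2.29 ± 0.08), and rose in Ino80ko, from 174 and 175 to 211 and 227 CPM (0.32 ± 0.07, adjusted p = 0.00087). Its interactions were 1.57 ± 0.10 in Ino80ko (adjusted p = 1.5e-08) and -1.05 ± 0.11 in Snf2hko (adjusted p = 6.1e-07).

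Tests of the interaction called 6 of 74 members in Ino80ko, 3 higher and 3 lower (background 9.03% of genes, 4.16% higher and 4.87% lower), and 22 in Snf2hko, 13 higher and 9 lower (background 32.6% of genes, 15.8% higher and 16.8% lower), of which 7 or 8 were higher without Snf2hko BRM014 replicate 1, Snf2hko DMSO replicate 1 or DMSO wild-type replicate 4. No Hox gene was called in Ino80ko by edgeR or DESeq2 (0 of 21), and Hoxb7 alone was under an unadjusted p of 0.05. In Snf2hko 8 of 21 Hox genes responded more strongly than in wild type and 0 less, among them Hoxa7 (3.05 ± 0.43), Hoxb3 (3.45 ± 0.94), Hoxb4 (1.20 ± 0.44), Hoxb7 (2.37 ± 0.72), Hoxb8 (7.46 ± 2.62), Hoxb9 (1.36 ± 0.45) and Hoxd13 (2.03 ± 0.25), with adjusted p between 6.4e-06 and 0.042. Of the 11 that passed the filter without the Snf2hko libraries 5 responded more strongly, beside 16.2% of the genes that passed in the same way, and Hoxb3, Hoxb7 and Hoxb8 were not among the 11. For the other families, 34 of 53 passed in this way, with 4 interactions called higher and 8 lower. Hoxb8 had 0 to 4 counts in each other group of the second batch, and its fitted value is no measure of size. Hoxa7 and Hoxd13 were called also when any 1 of the 8 libraries was left out. The other 6 calls were lost without at least 1 of DMSO wild-type replicates 3 and 4, BRM014 wild-type replicates 3 and 4 and the Snf2hko libraries (adjusted p = 0.052 to 1). Without Snf2hko BRM014 replicate 1, 3 of the 8 were called, without BRM014 wild-type replicate 3, 4 were, and without DMSO wild-type replicate 4 or Snf2hko DMSO replicate 1, 5 were. Six4 responded more strongly in Ino80ko (0.62 ± 0.09) and less in Snf2hko (-0.90 ± 0.10), where it reached 126 and 129 CPM. The interaction for Meis2 was 0.36 (95% interval -0.24 to 0.97) in Ino80ko and 0.29 (95% interval -0.28 to 0.87) in Snf2hko.

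**Figure D4:**
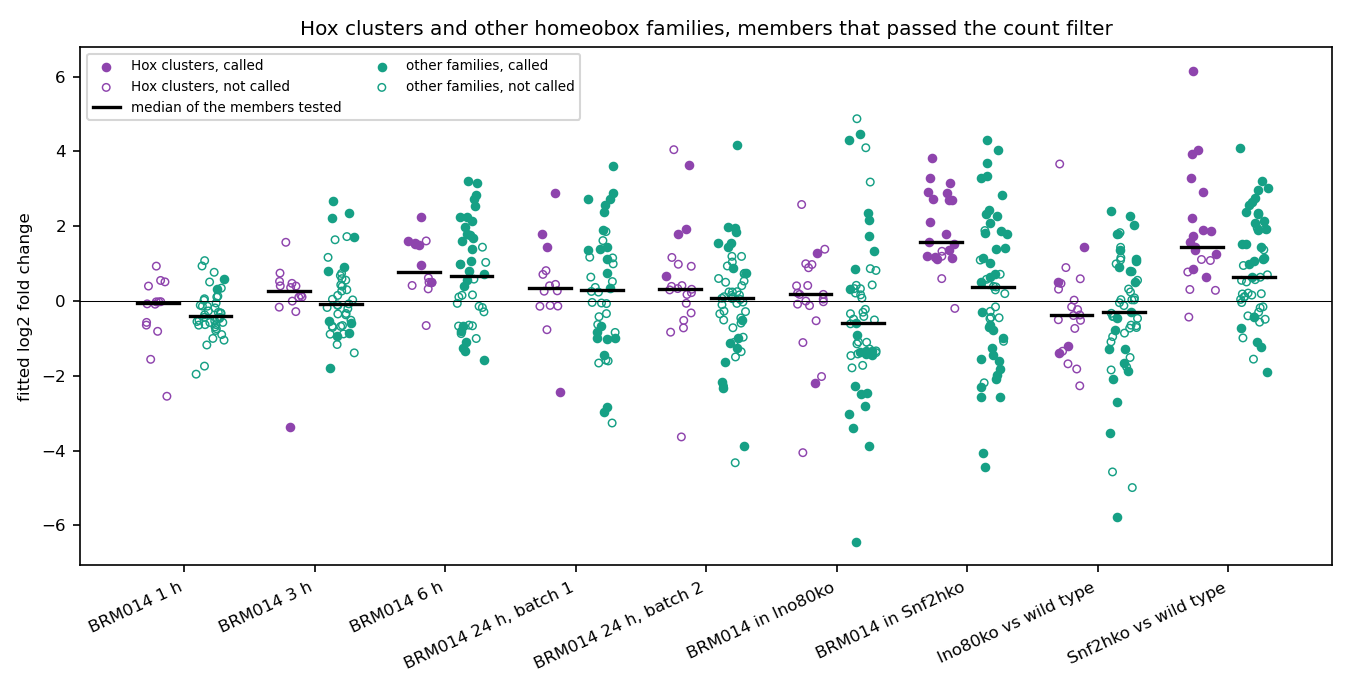
Fitted log2 fold change of each tested member in 9 comparisons, with Hox genes in purple and the other families in green, filled where called and open where not, and a black line at each median. Hox medians are 1.58 with BRM014 in Snf2hko and 1.44 in Snf2hko against wild type, partly set by the filter as 10 of the 21 passed it only through Snf2hko libraries, and they lie between -0.37 and 0.79 in the other comparisons drawn. Medians of the other families in the Snf2hko comparisons are partly set in the same way, by 19 of 53 genes.

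Over all groups, summed Hox levels lay between 10.2 and 26.98 CPM in every library outside Snf2hko, with the highest in BRM014 6 h (24.2 and 26.98) and BRM014 24 h of the first batch (19.8 and 22.4). They were 33.5 and 35.1 CPM in Snf2hko with DMSO and 106 and 107 CPM with BRM014. The other families summed to 316 to 444 CPM in all libraries with DMSO, analog or washout, or with BRM014 for 30 min or 1 h. With BRM014 they reached 462 and 476 CPM at 3 h, 530 and 537 at 6 h, 614 and 629 at 24 h, 587 and 607 in wild type of the second batch, and 681 and 724 in Ino80ko. In Snf2hko with BRM014 they stayed at 332 and 318 CPM. Six4 and Gbx2 made up the largest shares of the sum of the other families. Whether the sets differ was not tested.

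Genes related to these families were counted from lists of known members, to be read beside the 24.8% of all genes higher and 24.8% lower after 24 h in wild type and the 28.9% higher and 27.7% lower in Snf2hko with DMSO. After 24 h of BRM014 in wild type 8 of 17 tested Polycomb genes were higher and 3 lower, with a median of 0.17, led by Bmi1 (1.86 ± 0.10), a subunit of Polycomb repressive complex 1, with Bcor (-1.04 ± 0.08) and Phf19 (-1.50 ± 0.13) lower. Of 11 tested Trithorax and H3K27 demethylase genes 3 were higher and 1 lower. Of 16 tested retinoid and caudal genes, which act upstream of Hox genes, 2 were higher and 8 lower (median -0.71), with Aldh1a2, the enzyme that makes retinoic acid, higher (1.47 ± 0.11) and the binding protein Crabp1 (-2.40 ± 0.14) and receptor Rxra (-0.92 ± 0.10) lower. Of 18 tested homeobox genes outside the families 5 were higher and 5 lower, with Hopx (-3.67 ± 0.15) and Rhox6 (-2.31 ± 0.16) lower and Tgif2 (0.60 ± 0.06) higher. In Snf2hko with DMSO 9 of 16 retinoid and caudal genes were higher and 5 lower (median 0.59), beside the Hox values given above, and their part in them was not tested. Polycomb genes in the same comparison had 5 higher and 7 lower of 17 (median 0.06).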

How the data were processed

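RNA-seq of 38 libraries was analysed from 1 table of raw counts per gene, deposited by the authors for GRCm38/mm10. The submitters' processing notes name bcl2fastq (2.17) and STAR. Which program counted reads, and with which strand setting, is not given in the sources used here. Column names matched sample titles, and 0 value columns were left unmapped.

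Computed from the counts: edgeR 4.0.16 (R 4.3.3) with filterByExpr (minimum count 10, minimum total 15 per gene), TMM scaling, and robust quasi-likelihood tests of 24 comparisons. The 24 h comparison in wild type took the libraries of both batches and a batch term (11787 genes, 5 residual degrees of freedom). The difference between batches took the same libraries with batch by treatment (11787 genes, 4 degrees of freedom). The remaining comparisons were made within a batch (12517 and 13130 genes, 13 and 6 degrees of freedom). Genes were called at an adjusted p under 0.05. Standard errors are the fold change over the square root of F. CPM used TMM factors over all 38 libraries, and per-kilobase values the deposited exonic width. Intervals on counts are exact at 95%, cover counting error only, and a group at 0 was set to a floor of 3 counts. The fits were tested on simulated data, with changes placed only in genes of higher mean count. The simulation therefore does not cover members at low counts. Alternatives were DESeq2 1.42.0, no filter, a replicate block, only the groups compared, each vehicle alone, each batch alone, plain library totals for levels, and each library left out.

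Named members were Meis2, Nkx6-2, Six4, every called member where at most 10 were called, otherwise the 6 largest rises and 6 largest falls, the 10 highest levels per kilobase and the highest of each Hox cluster, and up to 3 called genes of each related list by adjusted p after 24 h in wild type. Further members, among them Gbx2, Nkx6-3 and the Hox genes followed across groups, were named after their values were seen. Some members are counted and are not reported by name here. Members and gene lists were chosen with earlier results of these data known.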

Additional observations from a re-analysis of the deposited data

Results flagged for a closer look

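A single library far from the other 3 of its group was looked for in 24 groups of 4 (12 named members in wild type at 24 h, with DMSO and with BRM014, 2 libraries of each batch), and chance marks about 1 in 20. Six6 stood at 0.181 CPM in DMSO 24 h wild-type replicate 1, against 0.0943 to 0.104 in the other 3, which are 4 counts there and 2, 4 and 4 counts in replicates 2, 3 and 4. Nkx6-2 stood at 9.93 CPM in the same library, against 6.68 to 7.11.

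The response to BRM014 differed between Ino80ko and wild type, by the interaction test, for Gbx2 (1.57), Six4 (0.62), Meis3 (-1.06), Nkx6-2 (-2.35) and Prrx2 (-2.38). It differed between Snf2hko and wild type for Hoxb8 (7.46), Dlx2 (3.77), Hoxb3 (3.45), Hoxa7 (3.05), Hoxb7 (2.37), Hoxd13 (2.03), Six4 (-0.90), Gbx2 (-1.05), Msx2 (-1.11), Nkx6-3 (-1.32), Gbx1 (-1.83), Nkx6-2 (-3.45) and Alx4 (-4.13), all in log2. Between batches it differed for Pax6 (-0.95).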

How the results depend on the processing

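Of the values of single genes under all alternatives, 3134 kept their direction and side of the threshold, 406 lost and 17 gained a call, and 11 changed sign. All 11 left out 1 library, which in groups of 2 leaves a lone sample assumed to vary like the other groups, and only Alx4 was called before it. Over the fits that leave out 1 library, Six4 ranged from -0.042 to 0.0060 at 30 min (above 0 without DMSO 1 h replicate 1) and from -0.22 to 0.0023 in DMSO 24 h against 1 h (without DMSO 24 h replicate 1), and Nkx6-2 from -0.73 to 0.091 with the analog at 24 h (without analog replicate 2). Against the analog at 24 h Hoxd8 ranged from -0.14 to 1.05 (below 0 without analog replicate 1). After 30 min of washout Meis2 ranged from -0.10 to 0.15 (below 0 without washout replicate 1) and Nkx6-2 from -0.25 to 0.17 (above 0 without washout replicate 1, and 0.12 without BRM014 1 h replicate 1). Meis2 ranged from -0.48 to 0.19 after 24 h of washout against DMSO (above 0 without DMSO replicate 2), from -0.067 to 0.50 in Snf2hko against wild type (below 0 without wild-type replicate 4) and from -0.020 to 0.56 for the Snf2hko interaction (below 0 without wild-type DMSO replicate 3). The Alx4 interaction in Snf2hko ranged from -4.79 to 0.26 (above 0 without wild-type BRM014 replicate 3). Counts of called members moved over 1.5 times as follows, and the cause was not tested. BRM014 1 h gave 4 without a filter and 1 with only the groups compared fitted (2 as reported). With only those groups, DMSO 24 h against 1 h gave 3 (6), the analog at 24 h 3 (8), washout for 30 min 1 (3) and washout for 24 h against DMSO 4 (9). DESeq2 gave 5 for the analog at 24 h, 2 for BRM014 against the analog at 1 h (1), as did no filter, and 2 for the difference between batches (1), where no filter gave 3. Leaving out 1 library gave 0 to 2 for BRM014 1 h, 2 to 5 for DMSO 24 h against 1 h, 4 to 7 for the analog at 24 h, 0 to 2 for BRM014 against the analog at 1 h, 1 to 4 and 1 to 2 for washout for 30 min and 1 h, 16 to 22 for washout for 6 h (25), 5 to 9 for washout for 24 h against DMSO, 15 to 22 for Ino80ko against wild type (25) and 1 to 3 for the difference between batches. Counted only over the Hox genes that passed the filter without the Snf2hko libraries, a choice made after seeing the data, the higher Hox genes in Snf2hko were 11 with BRM014 (17), 10 with DMSO against wild type (15) and 5 for the interaction (8), where fewer genes are counted. Replicate numbers showed no consistent pairing of the libraries, though groups of 2 cannot exclude it. Same-numbered deviations correlated at -0.49 to 0.60 in 78 pairs of groups of the first batch (25 over 0.1) and -0.41 to 0.50 in 15 of the second (4 over 0.1). With the replicate number as a block, 361 of 368 called values stayed called and the difference between batches gave 3 members. Depth limits the many members under 1 CPM.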
